A study of Mus musculus with 2 samples.

Results

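Translation initiation factors load the small ribosomal subunit onto the mRNA cap, bring in the initiator tRNA and join the subunits at the start codon. The cap is bound by eIF4F, which is made of the cap binder eIF4E, the scaffold eIF4G and the helicase eIF4A, while eIF3 holds the small subunit, eIF2 carries the initiator tRNA and eIF2B recharges eIF2 with GTP. Kinases that phosphorylate eIF2 and the 4E-BP proteins that sequester eIF4E slow this step in stressed or starved cells. UPF1 is an RNA helicase that binds mRNA and, in nonsense-mediated decay, acts on transcripts whose translation ends early. The values below describe how much UPF1-bound RNA came from the transcripts of the initiation factor genes themselves.

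The genes were taken by a rule on their names that uses no measured value, though earlier results of these data were known when they were chosen. They are the protein-coding loci of the RefSeq annotation of GRCm38 whose symbol starts with Eif and a digit of 1 to 6, without Eif4a3, Eif4enif1 and Eif2ak3. This gave 53 genes, of which 40 had at least 1 cluster of UPF1-bound RNA on their own strand. They held 373 of the 123349 clusters listed, and the whole list reached 9658 genes. The symbols also take in genes that are not subunits of the initiation machinery proper, namely 3 eIF2 kinases, the 4E-BPs, Eif2a, Eif2d, Eif5a, Eif5a2, Eif6 and Eif1ad, as well as Eif4a3l1, a locus named for its likeness to Eif4a3.

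The clusters come from eCLIP, in which protein is crosslinked to RNA in cells and pulled down with an antibody, here against UPF1, and the RNA fragments are sequenced. The immunoprecipitate is set against an input library made without the pull-down. Both were made from mouse neural progenitor cells grown in culture, labelled as cortex and with the genotype Upf2fl/fl, a loxP-flanked Upf2 allele. Both carry the label MOCK, which the labels do not explain, and no Cre or age is given. There was 1 immunoprecipitate and 1 input, so no spread between cultures can be given and no test was made between genes or groups of genes. Among 10 progenitor markers 9 had a cluster (Hes1 had none), as did 4 of 5 neuron and 4 of 6 glial markers. Blood, vessel, fibroblast and microglia markers had none, 0 of 10. The list reached 9658 genes, so a cluster on a marker does not by itself identify a cell type.

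Each cluster carries the authors' log2 fold of immunoprecipitate over input and their −log10 p for it. A cluster is called enriched where both are at least 3. Both columns fit whole read counts, which were rebuilt for 286 of the 288 clusters of these genes with a fold above 0, and the 95% intervals below are exact binomial intervals of those counts. They cover counting error in these libraries only. In the middle of their range, the enriched clusters of these genes held 59.5 reads in the immunoprecipitate (quartiles 34.25 and 165.5) against 2 in the input, and clusters above 0 that were not enriched held 7.5 against 1. The highest fold rested on a single input read in 13 of the 16 enriched genes, which makes its interval wide.

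UPF1 was enriched on 16 of the 40 initiation factor genes with a cluster, 40.0% (Wilson 95% interval 26.3 to 55.4). Over all 9658 genes with a cluster the share was 34.1%. The highest fold in a gene had a median of 3.02 over the 40 genes and of 2.56 over all genes, and the typical number of clusters per gene was 6 in both. The count of genes thus lay close to the background. Of their clusters, 71 of 373 were enriched (19.0%), against 11.6% of all assigned clusters, and 8 genes with 4 or more enriched clusters held 62 of the 71. Counts varied between factors, though with 1 library of each kind this was not tested. Among eIF4F and its helpers, 9 of 11 genes with a cluster were enriched, and among eIF5, eIF5A and eIF5B 3 of 4 were. None of 11 eIF3 genes was enriched, nor was any of 5 genes of the group of eIF2 subunits, Eif2a and Eif2d, which leaves out eIF2B and the kinases. These groups also differed in clusters per gene, with medians of 12, 11, 4 and 3 in that order. By clusters, 42 of 200 were enriched in eIF4F and its helpers (21.0%) and 18 of 43 in eIF5, eIF5A and eIF5B (41.9%). The part of cluster number in the gene counts was not tested.

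**Figure D1:**
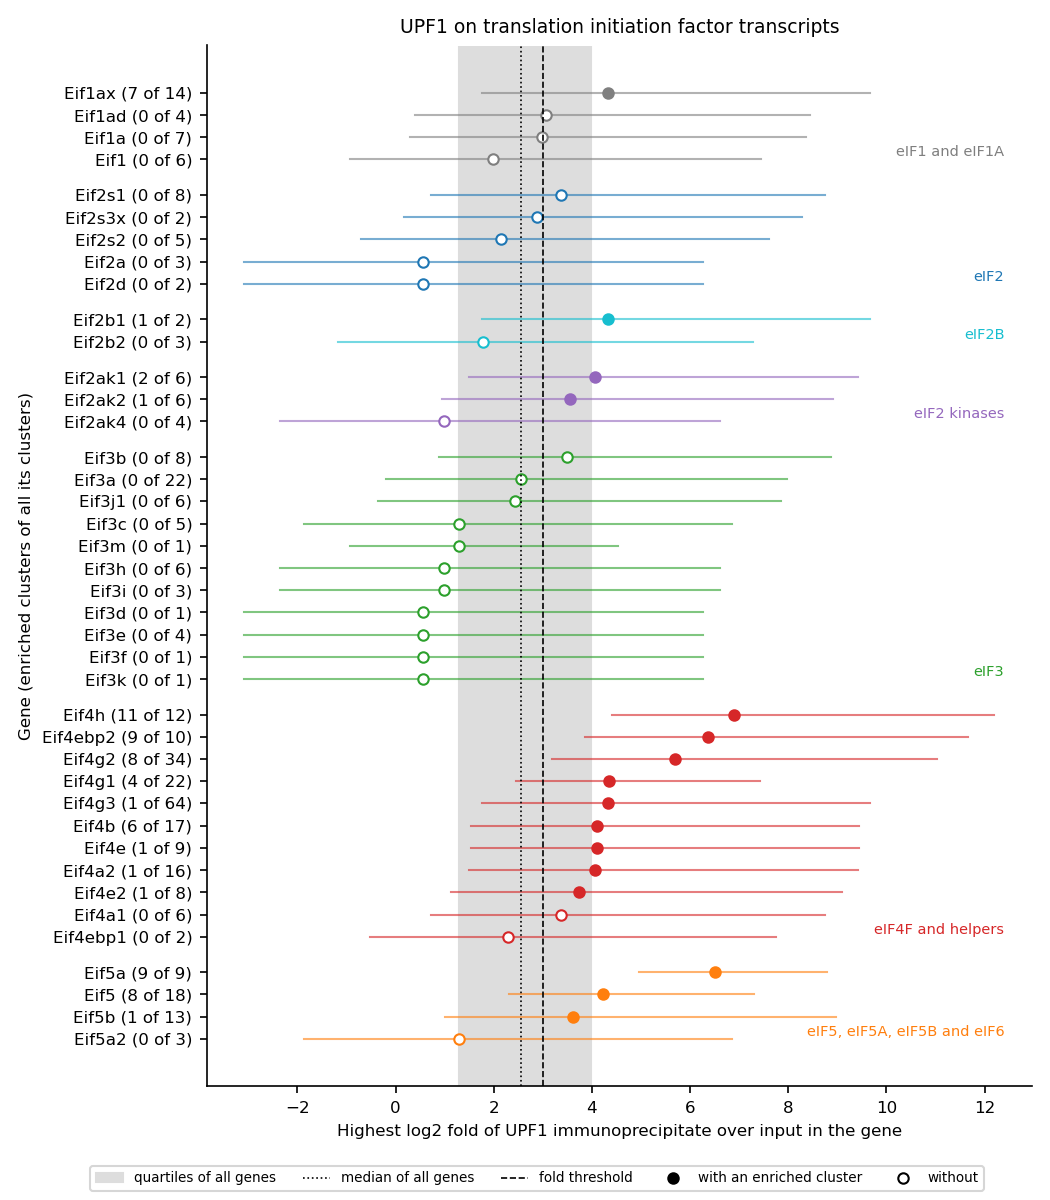
Highest log2 fold of UPF1 immunoprecipitate over input in each of the 40 initiation factor genes with a cluster, by factor. Bars are exact 95% counting intervals, filled points mark genes with an enriched cluster, and the grey band and dotted line give the quartiles and median of all genes (1.3, 3.98 and 2.56). Eif4h, Eif5a and Eif4ebp2 lie farthest right, and all 11 eIF3 genes have open points.

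The helpers of the helicase eIF4A, which help it unwind the mRNA near the cap, were bound along stretches near their 3′ ends. Eif4h (chromosome 5, 134619872 to 134639409, minus strand; all coordinates are of GRCm38, called mm10 in the labels) had 11 of 12 clusters enriched. Its highest cluster held 242 immunoprecipitate reads against 1 input read, a log2 fold of 6.89 (interval 4.40 to 12.20), 810 nt from the annotated 3′ end. The 11 enriched clusters spanned 312 to 1391 nt from that end, with folds of 4.46 to 6.89, and covered 829 nt. The cluster with the most reads, at 1242 nt, held 460 against 4, a fold of 5.82 (interval 4.46 to 7.70). Outside this stretch Eif4h had 1 cluster, at 2173 nt, with a fold of 1.98. Eif4b, the other helper (chromosome 15, 102073773 to 102097173, plus strand), had 6 of 17 clusters enriched, all within 1375 nt of the 3′ end, and reached 4.11 (interval 1.53 to 9.45) from 35 reads against 1. In the rest of the Eif4b locus 10 clusters had a median fold of 0.56, and none exceeded 1.98.

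The 4E-BPs block the cap by holding eIF4E and let go when mTORC1 phosphorylates them. Eif4ebp2 (chromosome 10, 61428491 to 61452790, minus strand) showed 9 enriched clusters of 10, the highest at 6.36 (interval 3.86 to 11.67) from 167 reads against 1. Its enriched clusters stood apart from the annotated 3′ end: they lay between 4219 and 5125 nt from it, with folds of 3.19 to 6.36, and the last 4200 nt of the locus held no cluster. The remaining cluster of Eif4ebp2 lay 24066 nt from the 3′ end, close to the start of the locus, with a fold of 2.15. Eif4ebp1 had 2 clusters and reached 2.30 from 10 reads against 1, 251 nt from its 3′ end. The intervals of the highest folds of Eif4ebp2 and Eif4ebp1 (-0.52 to 7.74) overlap. The locus of Eif4ebp3 held 1 cluster with a fold of 2.88, but the tables used here give the locus no strand and the cluster was not assigned.

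All 3 genes of the eIF4G family had an enriched cluster; the products of Eif4g1 and Eif4g3 are scaffolds that bridge the cap binder and eIF3. Eif4g1 (chromosome 16, 20672720 to 20692883, plus strand) had 4 of 22 enriched, which were the 4 nearest its 3′ end, at 77 to 389 nt. The one nearest the end was the highest, with 83 reads against 2, a fold of 4.35 (interval 2.45 to 7.42). The other 18 clusters of Eif4g1 ran from -0.02 to 1.98, from 1402 to 19911 nt. Counting intervals of the enriched clusters and of the rest overlap. Eif4g3, a paralog of Eif4g1 (chromosome 4, 137991779 to 138207086, plus strand; 215308 nt), had 64 clusters and 1 enriched. That cluster, 440 nt from the 3′ end, held 41 reads against 1, a fold of 4.33 (interval 1.77 to 9.67). The 61 clusters of Eif4g3 beyond 5000 nt had a median fold of 0.56 and a highest of 2.15.

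Eif4g2 encodes DAP5, a relative of eIF4G that lacks the eIF4E-binding part and drives initiation on selected mRNAs. It (chromosome 7, 111067985 to 111083030; the strand was taken as minus from its own clusters) had 8 of 34 clusters enriched, in separate places. Of these, 2 lay at 3109 and 3439 nt from the 3′ end of the locus, with folds of 4.02 and 3.83. The other 6 lay well inside the locus, at 8353 to 9045 nt from the 3′ end and 6000 to 6692 nt from the 5′ end, and included the highest cluster of the gene, with 106 reads against 1, a fold of 5.70 (interval 3.19 to 11.02). Between these places 14 clusters of Eif4g2 had folds of -1.37 to 2.82, none enriched.

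Of 4 cap binder genes, 2 had clusters, and each of these had 1 enriched. Eif4e, the cap-binding subunit of eIF4F (chromosome 3, 138526191 to 138559696, plus strand), had 1 of 9 clusters enriched, 3915 nt from its 3′ end, with 35 reads against 1, a fold of 4.11 (interval 1.53 to 9.45). Nearer the 3′ end Eif4e had 3 clusters, at 2884, 3313 and 3614 nt, with folds of 0.98, 0.78 and 2.78. Eif4e2, the 4EHP protein that binds the cap without starting translation (chromosome 1, 87213911 to 87240488, plus strand), had 1 of 8 clusters enriched, 1871 nt from its 3′ end, with 27 reads against 1, a fold of 3.73 (interval 1.13 to 9.09). Neither cluster reached a −log10 p of 5. Eif4e3 and Eif4e1b had no cluster.

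The helicase paralogs fell on either side of the threshold. Eif4a2 (chromosome 16, 23107468 to 23114132, plus strand) had 1 of 16 clusters enriched, 550 nt from its 3′ end, with 34 reads against 1, a fold of 4.06 (interval 1.49 to 9.41). Eif4a1 (chromosome 11, 69666936 to 69672423, minus strand) had 6 clusters and none enriched. Eif4a3l1 had no cluster. The Eif4a1 cluster 107 nt from the 3′ end had a fold of 3.37 (interval 0.73 to 8.74) from 21 reads against 1, with a −log10 p of 2.59, just outside the threshold. The next 2 were deeper, with 91 reads against 6 (fold 2.90, interval 1.72 to 4.38) and 91 against 8 (fold 2.48, interval 1.44 to 3.74), and with a fold threshold of 2 in place of 3 Eif4a1 was called, giving 17 genes where 36.2% of all genes were called. The intervals of the highest folds of Eif4a2 and Eif4a1 overlap. The paralogs are alike in sequence, and how reads with several matches were handled is not given in the sources used here.

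Small nucleolar RNAs lie inside both helicase loci, and these gave the lowest folds of the set. In Eif4a2, 5 clusters inside the snoRNA loci Snora81, Snord2, LOC115488689 and LOC115488690 had folds of -5.77, -5.77, -5.07, -4.58 and -2.02. In Eif4a1, 2 clusters inside the snoRNA loci LOC115487878 and LOC115487892 had folds of -5.76 and -6.30. Over these genes, 10 clusters in 4 genes touched a snoRNA locus, with a median fold of -5.12, against 0.98 for the other 363 clusters. Among the 10, 7 had a fold of -3 or lower, as did none of the 363, where 0.416% of all assigned clusters did. Over all protein-coding genes, 79 clusters touched a snoRNA locus within the gene, with a median of -4.58. In Eif4a1, Eif4a2, Eif4g2 and Eif5 the lowest cluster of the gene was one of these.

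**Figure D2:**
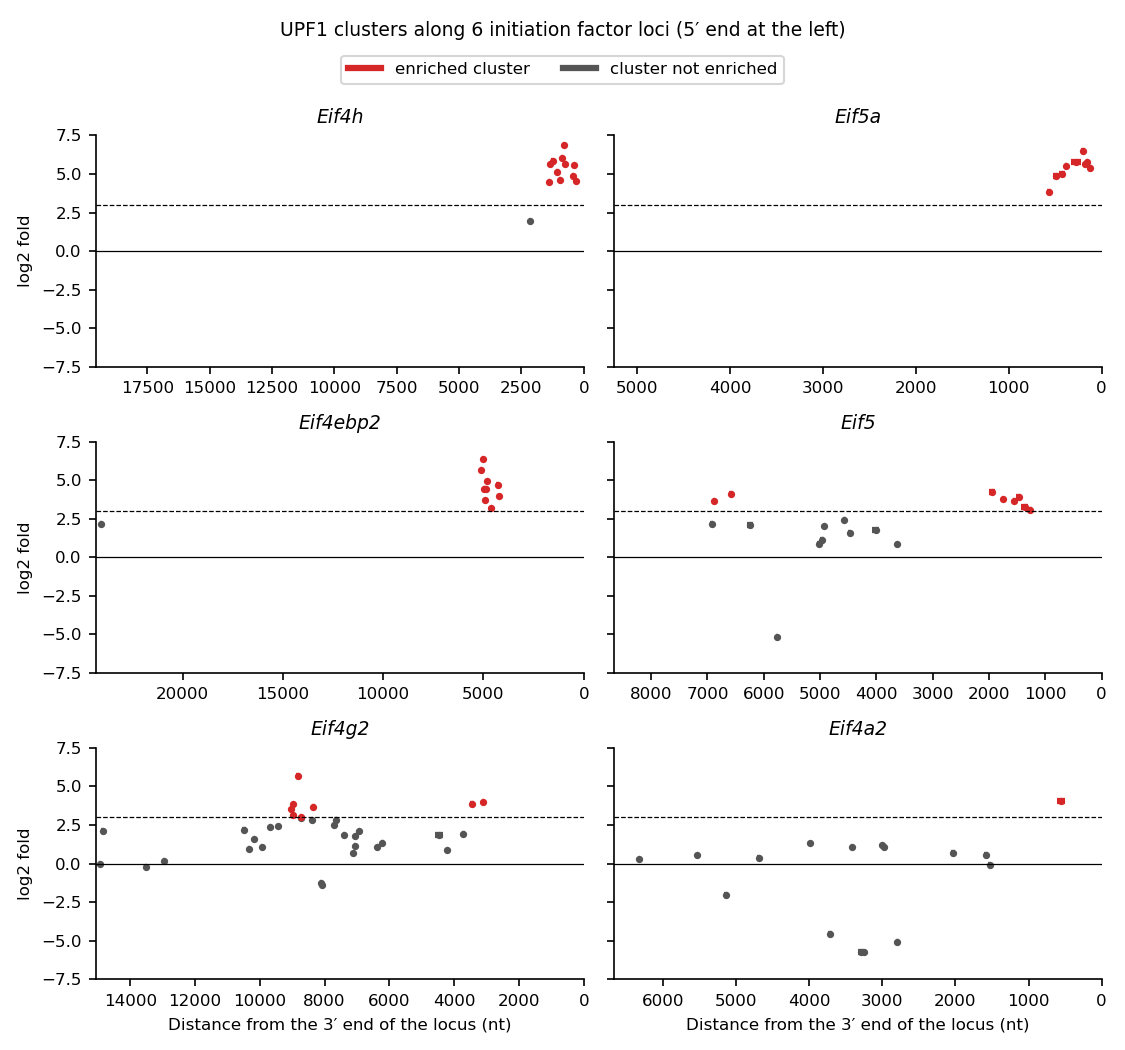
UPF1 clusters along 6 initiation factor loci, by distance in nt from the annotated 3′ end (right edge) and log2 fold; each mark is 1 cluster, red where enriched, and the dashed line is the fold threshold of 3. Eif4h and Eif5a are bound near the right edge, Eif4ebp2 between 4219 and 5125 nt, Eif5 and Eif4g2 in separate places, and Eif4a2 has a single enriched cluster and low folds at its snoRNAs.

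Eif5a, whose product carries the amino acid hypusine and helps ribosomes through difficult peptide bonds, was the only one of the 40 genes with every cluster enriched, 9 of 9, where 1.99% of all genes had every cluster enriched. Eif5a (chromosome 11, 69916712 to 69921958, minus strand) reached 6.51 (interval 4.96 to 8.79) from 556 reads against 3, 202 nt from its 3′ end. The 9 clusters lay at 123 to 569 nt, with folds of 3.84 to 6.51, the lowest being the one farthest from the end. The end of the locus overlaps Gps2 on the opposite strand. Among its clusters outside Gps2, Eif5a reached 5.53. One cluster, at 276 nt, had its −log10 p at the cap of 400 and could not be rebuilt. None of the 3 clusters of its paralog Eif5a2 was enriched, and the highest reached 1.30 from 5 reads against 1 (interval -1.86 to 6.86).

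Eif5, the factor that makes eIF2 hydrolyse its GTP when the start codon is found (chromosome 12, 111538101 to 111546753, plus strand), had 8 of 18 clusters enriched. Of these, 6 lay at 1270 to 1942 nt from the 3′ end, with folds of 3.06 to 4.22, and the highest of them held 76 reads against 2 (interval 2.32 to 7.30). The deepest held 156 reads against 8. The other 2 lay near the front of the locus, 2065 and 1770 nt from its 5′ end, with folds of 4.11 and 3.68 from 35 and 26 reads against 1 each. Between these places 9 clusters of Eif5 had folds of -5.17 to 2.39, the lowest over the snoRNA Snora28. Eif5b, the GTPase of subunit joining (chromosome 1, 37998010 to 38055579, plus strand), had 1 of 13 clusters enriched, 3697 nt from its 3′ end, with 25 reads against 1, a fold of 3.62 (interval 1.01 to 8.98). Eif6, which keeps ribosomal subunits apart, had 1 cluster in its locus with a fold of 1.30, not assigned for want of a strand.

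The factors that scan for the start codon were bound unevenly. Eif1ax, the X-linked eIF1A gene (chromosome X, 159372178 to 159389621, plus strand), had 7 of 14 clusters enriched between 1502 and 3985 nt from its 3′ end. The highest held 41 reads against 1, a fold of 4.33 (interval 1.77 to 9.67), and all 14 had folds of at least 1.56. Its autosomal counterpart Eif1a had no enriched cluster among 7 and reached 2.98 from 16 reads against 1 (interval 0.29 to 8.37). The Eif1ax and Eif1a intervals overlap, and reads of the near-identical coding parts could be split between them. Eif1 had 6 clusters and reached 1.98, Eif1ad had 4 and reached 3.06 (interval 0.39 to 8.45) from 17 reads against 1, without passing the p threshold, and Eif1b had none.

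No subunit of eIF2, the carrier of the initiator tRNA, was enriched. Eif2s1, the alpha subunit on which the kinases act, came closest, with 8 clusters and a highest fold of 3.37 (interval 0.73 to 8.74) from 21 reads against 1. Eif2s3x, the gamma subunit, had 2 clusters and reached 2.88, and Eif2s2, the beta subunit, had 5 and reached 2.15. Eif2a and Eif2d, which deliver tRNA without eIF2, each reached 0.56, the value of 3 reads against 1. The Y-linked copy Eif2s3y had no cluster. None of the 20 clusters of this group was enriched, and by genes 0 of 5 allows a share of up to 60.0%. No rebuilt cluster of the group held 24 or more reads, the fewest that gave an enriched call against 1 input read.

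Of the exchange factor eIF2B, 2 of 5 genes had a cluster on a known strand. Eif2b1, the alpha subunit (chromosome 5, 124570214 to 124579131, minus strand), had 1 of 2 clusters enriched, 601 nt from its 3′ end, with 41 reads against 1, a fold of 4.33 (interval 1.77 to 9.67). Eif2b2 had 3 clusters and reached 1.78 (interval -1.18 to 7.28) from 7 reads against 1, Eif2b3 had 1 cluster of unknown strand with a fold of -0.02, and Eif2b4 and Eif2b5 had none. Of the 3 eIF2 kinases in the set, which leaves out Eif2ak3, 2 were enriched, beside 34.1% of all genes. Eif2ak1, the heme-regulated kinase (chromosome 5, 143817792 to 143902717, plus strand), had 2 of 6 clusters enriched, at 437 and 523 nt from its 3′ end, each with 34 reads against 1, a fold of 4.06 (interval 1.49 to 9.41). Eif2ak2, the kinase PKR that senses double-stranded RNA (chromosome 17, 78850504 to 78882572, minus strand), had 1 of 6, 4506 nt from its 3′ end. That cluster held 24 reads against 1, a fold of 3.56 (interval 0.94 to 8.92) and a −log10 p of 3.02, just inside the threshold. Eif2ak4, the kinase GCN2 that senses amino acid shortage, had 4 clusters and reached 0.98 (interval -2.36 to 6.60) from 4 reads against 1.

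The eIF3 genes formed the largest group without an enriched cluster. Of 14 genes, 11 had a cluster, and 4 of those had only 1. Their 58 clusters had a median fold of 0.56, and none was enriched, where 11.6% of all assigned clusters were. By genes, 0 of 11 allows a share of up to 27.3%, and 36 of the 58 clusters lay beyond 5000 nt from the 3′ end, where few clusters of any gene were enriched. Eif3b, a subunit at the mRNA entry side, reached 3.50 (interval 0.88 to 8.86) from 23 reads against 1, 342 nt from its 3′ end, with a −log10 p of 2.79, just outside the threshold. Eif3a, the largest subunit, had the most clusters of the group, 22, of which 14 were below 0. Its highest fold was 2.56 (interval -0.20 to 7.98) at 582 nt, and the 20 clusters beyond 1000 nt had a median of -0.27 and a highest of 0.98. The deepest eIF3 cluster with a fold above 0 was in Eif3a, 33 reads against 15, a fold of 0.11 (interval -0.81 to 1.10), which excludes a fold of 3 in that place. Eif3j1 reached 2.44, and the other 8 genes, Eif3c, Eif3d, Eif3e, Eif3f, Eif3h, Eif3i, Eif3k and Eif3m, reached 0.56 to 1.30. Eif3g, Eif3l and Eif3j2 had no cluster.

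Depth moved with these differences. The reads rebuilt over a gene's clusters above 0 had a median of 10 in the eIF3 genes, 20 in the eIF2 group, 296 in eIF4F and its helpers and 49 over all genes. Clusters with at least 24 immunoprecipitate reads numbered 59 in 10 genes of eIF4F and its helpers, of which 42 were enriched, but only 1 in the eIF3 genes. Over the initiation factor genes 70 of 97 such clusters were enriched (72.2%), and over all genes 72.8% were. These reads are part of the fold, and the list holds no expression level, so more RNA in the cell and more UPF1 per RNA cannot be told apart. In 10 of the 11 eIF3 genes no rebuilt cluster held 24 reads, and since few reads are also what a lack of binding gives, the part of depth in their count of 0 was not tested.

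Most enriched clusters lay toward the 3′ end of the locus. Of the 71 in these genes, 61 were no farther than 5000 nt from it (85.9%), against 91.8% of the enriched clusters of protein-coding genes. Of the 179 clusters within 5000 nt, 34.1% were enriched, equal to the background of 34.1% over all genes. Within 5000 nt, 34 of 72 clusters of eIF4F and its helpers were enriched (47.2%), 16 of 27 of the eIF5 group (59.3%), and 0 of 22 of eIF3. Clusters of a gene are not independent, and some touch each other. Eif4h and Eif4ebp2 held 11 and 7 of the 34, and Eif5a and Eif5 held 9 and 6 of the 16. With touching clusters joined, 39 enriched clusters in place of 61 lay within 5000 nt. Beyond 5000 nt, 10 of 194 were enriched (5.15%), against 1.39% over all genes. All 10 lay between 5000 and 10000 nt, where 16.4% of the clusters of these genes and 8.31% of those of protein-coding genes were enriched. They came from 3 genes, 6 from Eif4g2 and 2 each from Eif4ebp2 and Eif5. None of 11 clusters in the first 1000 nt of a locus was enriched, against 2.34% for protein-coding genes. Distances run along the genome and include introns, since the annotation used gives outer ends of loci only.

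Clusters past the annotated end were few. Within 5000 nt downstream of the 3′ ends, on the same strand, 6 of the genes had 8 clusters, none enriched, with a highest fold of 2.30 downstream of Eif3c.

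At their 5′ ends, many mRNAs of the translation machinery are known to carry the TOP motif, a C at the start followed by a run of pyrimidines. It was searched as a C at the first base of an annotated start followed by 4 bases that are each C or T, on the strand of the gene. Among these genes 41 were in the RefSeq promoter table of GRCm38.p6, and 2 matched (4.88%), against 3.01% of all 27025 genes in it. Over protein-coding genes with a cluster, 36.3% of those with the match and 34.1% of those without had an enriched cluster, and the median highest fold was 2.56 in both. The starts of the matching genes Eif3f and Eif2s3x are shown with that of Eif4h, the gene with the highest fold, which has no match. Each runs from 20 bases before the start to 10 bases into the transcript, with the first 5 transcribed bases in capitals.
Eif3f, chr7:108934395-108934424, plus strand: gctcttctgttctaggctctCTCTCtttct
Eif2s3x, chrX:94212642-94212671, minus strand: ggcggctgccgagcattttcCTTTTctctc
Eif4h, chr5:134639400-134639429, minus strand: cgtgcgtgcgacttgcgatcAGGCAgcgcg
Neither Eif3f, with a highest fold of 0.56, nor Eif2s3x, with 2.88, was enriched. An annotated start may differ from the start used in these cells, so no match says only that these letters are not at that base.

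Set beside other machinery genes, the initiation factors had a higher share of enriched genes than the ribosomal proteins, 16 of 40 against 1 of 60 (1.67%), and than the proteasome subunits, of which 6 of 24 were enriched (25.0%). The median highest fold was 3.02 in the initiation factor genes, 1.30 in the proteasome genes and 0.98 in the ribosomal protein genes. The eIF3 genes, with a median of 0.98, had the same value as the ribosomal protein genes. These are counts in a single pair of libraries and were not tested. The rebuilt reads per gene moved with them, with medians of 46.5 in the initiation factor genes, 13 in the proteasome genes and 8.5 in the ribosomal protein genes.

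**Figure D3:**
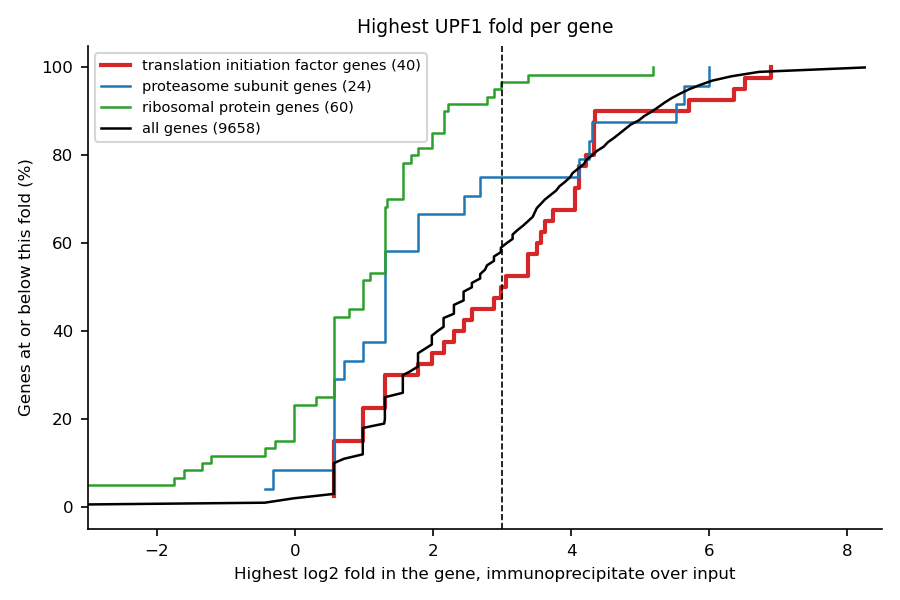
Cumulative share of genes (%) by their highest log2 fold of UPF1 immunoprecipitate over input, for initiation factor, proteasome subunit and ribosomal protein genes and for all genes. The initiation factor curve runs near that of all genes (medians 3.02 and 2.56), right of the ribosomal protein curve (median 0.98); values below -3 are not drawn.

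Partners of initiation outside the symbol rule were taken from a list of 48 genes, which also holds genes of elongation and release. Of the 45 with a cluster, 21 were enriched (46.7%), beside 34.1% of all genes. Ppp1r15b, which helps remove the phosphate from eIF2, showed 7 enriched clusters of 8, with a highest fold of 6.39 (interval 3.90 to 11.71). Cyfip2, of the family that links FMRP to eIF4E, reached 5.72, and Ncbp2, of the nuclear cap-binding complex, 5.69. Paip2b, an inhibitor of poly(A)-binding protein, had 11 of 11 enriched and reached 5.68, and Rptor, the mTORC1 subunit that binds 4E-BPs, had 4 of 43 and reached 5.19.

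Among the rest of that list, Eef2, the elongation factor of translocation, reached 5.07, Abce1, the ribosome recycling factor, 5.04 with 6 of 6 clusters enriched, and Ddx3x, a helicase of initiation, 4.83. Impact, an inhibitor of GCN2, also reached 4.83, while Mknk1 and Mknk2, the kinases of eIF4E, reached 4.59 and 4.47. Of those not enriched, the 3 with the most clusters were Rps6kb1, the S6 kinase (19 clusters, highest 2.56), Etf1, the release factor (16 clusters, highest 3.22), and Pdcd4, an inhibitor of eIF4A (16 clusters, highest 1.30). The Pdcd4 value rested on 30 reads against 6 (interval 0.01 to 2.85), which excludes a fold of 3.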

How the data were processed

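One eCLIP immunoprecipitate of UPF1 and its input were compared through the table that the authors deposited, which has no header. From its values and the customary layout, its columns hold a log2 fold of immunoprecipitate over input and a −log10 p per cluster, as the authors deposited them. The −log10 p is 0 for folds at or below 0 and ends at a cap of 400. UMI-tools, cutadapt, STAR and mm10 are named per the submitters' processing notes. How clusters were called and filtered, how the fold was formed and how reads with several matches were treated is not given in the sources used here. There was no replicate, so no p-value was computed.

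Of 123349 clusters, 120902 were assigned to RefSeq GRCm38.p6 loci holding most of their bases on the same strand. Where several loci were left, the only protein-coding locus among them was taken. Strands came from the RefSeq promoter table, for 41 of the 53 genes; otherwise a locus took the strand of at least 80% of 2 or more clusters lying in no other locus (6 genes), and 6 genes had none. Of 90119 clusters in a sole locus of annotated strand, 99.7% lay on it. For Eif1a, Eif3e, Eif3h, Eif3i, Eif4ebp1 and Eif4g2 the strand is therefore not independent of the clusters. Read counts were rebuilt with the commonest fold taken as 3 reads against 1, which sets the log2 scale between the libraries at -1.02. A count pair was accepted where its exact binomial p (under 5 reads on either side) or chi-square p came within 0.05 or 1% of the deposited −log10 p. This held for 90006 of 90350 clusters with a fold above 0 (99.6%). Where the input is 1, the library may have held no read there. Library totals are not in the file, and the depth is known only per cluster from these counts. The rebuilding was tested on simulated data. Limits for a share of 0 are 3 counts over the total. The highest fold of a gene is chosen among its clusters and so tends to grow with their number. Python 3.11.15, pandas 2.3.3 and scipy 1.17.1 were used.

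The genes, lists and settings were chosen with earlier results of these data known. Every gene is accounted for; full values are given for enriched genes and, in each factor group, for the genes without an enriched cluster that have the most clusters and the highest fold. Of the partners, the 12 highest enriched, apart from an item that is not reported here, and the 3 without an enriched cluster that have the most clusters are named. Other settings tried were other fold and p thresholds, clusters of a single locus, joined clusters, input counts of 1 left uncalled, genes with 3 or more clusters and core subunits only. Genome sequence of the clusters was not used here.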

Additional observations from a re-analysis of the deposited data

How the results depend on the processing

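Of 45 values recomputed under other settings, 34 kept their value within the tolerance set for each. The tolerance was wide. For example, 43 near clusters in place of 61 with a distance of 2000 nt still counted as kept. So did 12 enriched genes in place of 16 with core subunits only. That setting has fewer genes, so these are 12 of 30 genes with a cluster beside 16 of 40. With a −log10 p of at least 5, 10 of the 40 initiation factor genes with a cluster were enriched in place of 16. The share over all genes was then 26.1%, so that of the initiation factor genes lay slightly below it. Eif2ak1, Eif2ak2, Eif4a2, Eif4e, Eif4e2 and Eif5b were lost. Of the clusters of the initiation factor genes, 46 were enriched in place of 71, and 39 in place of 61 within 5000 nt of the 3′ end. With clusters of an input count of 1 left uncalled, 8 of the 40 genes, 43 clusters and 37 near clusters remained. The median highest fold was 1.25 in place of 3.02. Over all genes, 2096 were enriched in place of 3291 (21.7%), so here too the share of the initiation factor genes lay slightly below the background. The 8 genes that this setting lost were Eif2ak1, Eif2ak2, Eif2b1, Eif4a2, Eif4e, Eif4e2, Eif4g3 and Eif5b, so their calls rest on a single input read. Joining touching clusters gave 45 enriched clusters, 39 of them within 5000 nt, by having fewer clusters to count, and left 16 genes. A length-weighted mean over a gene's clusters in place of its highest fold had a median of 1.18. With a fold of at least 2, Eif4a1 was added, giving 17 genes, against 36.2% of all genes. With genes of 3 or more clusters only, 15 were enriched, out of fewer than 40 because genes with fewer clusters drop out. Over the whole list, 3189 of the 7494 genes with 3 or more clusters were enriched (42.6%). No paired analysis was possible because there is 1 library of each kind. The median highest fold and the recomputed highest folds of single genes stayed above 0. The other values are counts, which have no sign. With only clusters that lie inside 1 locus, Eif5a reached 5.53 and Eif5a2 had no value. The fewest immunoprecipitate reads that gave an enriched call against 1 input read were 24; how far depth limits the calls was not tested, since these reads are part of the fold.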
